A study of Arabidopsis thaliana with 4 samples.

Results

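Plant defensin genes of the PDF1 and PDF2 groups were followed in Arabidopsis thaliana. The members are the genes whose symbol begins PDF1. or PDF2. and that have a probe set listed to them alone, which gave 5 of the 13350 genes named on the array. They are PDF1.2 (AT5G44420, probe set 249052_at), PDF1.2b (AT2G26020, 257365_x_at), PDF1.4 (AT1G19610, 261135_at), PDF2.1 (AT2G02120, 266141_at) and PDF2.5 (AT5G63660, 247337_at). The reference table holds 13 genes with a PDF1 or PDF2 name. A further 5 of these have a named probe set under an LCR symbol, for low-molecular-weight cysteine-rich, and serve here as relatives. They are LCR67 (PDF1.1), LCR69 (PDF2.2), LCR68 (PDF2.3), LCR66 (PDF2.4) and LCR72 (PDF2.6). The other 3, PDF1.2c, PDF1.3 and PDF1.5, have no probe set named to them alone and were not analysed here.

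The labels describe RNAi groups 1, 2 and 3, independent groups of plants that carry an inverted repeat made from the myosin XI-K coding sequence, and 1 GUS group, plants that express the coding sequence of the bacterial reporter GUS constitutively. Each group has 1 array, hybridised with total RNA from rosette leaves, cauline leaves and flowers mixed in equal amounts. The labels give neither the age and strain of the plants, nor the promoter of the inverted repeat, nor how many plants made up a group. The GUS array and the RNAi group 1 array held the same value in all 22810 rows. They were counted as 1 sample, called the shared array, and the labels do not tell which plants it measured. Silencing and any other difference between plant groups therefore cannot be told apart, and no value is ascribed to silencing. Values are MAS5 probe set signals on a linear scale, and signals of different probe sets are not comparable with each other. Signals under 32, which made up 24.9% to 27.6% of each array, are called dim here. The median of all probe sets lay 0.12 higher in RNAi group 2 and 0.03 higher in RNAi group 3 than on the shared array, on the log2 scale. No probe set is named to myosin XI-K alone, so its own level was not analysed here.

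Plant defensins are small secreted peptides held together by disulphide bonds between conserved cysteines, and many of them block the growth of fungi. PDF1.2 is the classic marker of the branch of plant defence in which jasmonate and ethylene act together. Its transcription is driven by factors of the ERF family such as ERF1 and ORA59, which lie downstream of the jasmonate receptor COI1 and the ethylene factor EIN3, while the MYC branch of jasmonate signalling and salicylate restrain it. The PDF2 genes are known as defensins with a more constitutive expression that differs between organs.

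The PDF1.2 pair had higher signals in both RNAi groups than on the shared array, PDF1.4 lay on either side of it, PDF2.1 was far brighter in RNAi group 2 than on the other arrays, and PDF2.5 was dim on all 3 distinct arrays. None of the 4 members past the filter on dim probe sets passed the test over all 15922 kept probe sets. In that fit 5 probe sets were called higher in RNAi groups 2 and 3, which is 0.0314% of the kept ones, and 0 were called lower (0%). At an unadjusted p under 0.05 in limma, 0.923% of the kept probe sets were higher and 0.301% lower.

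**Figure D1:**
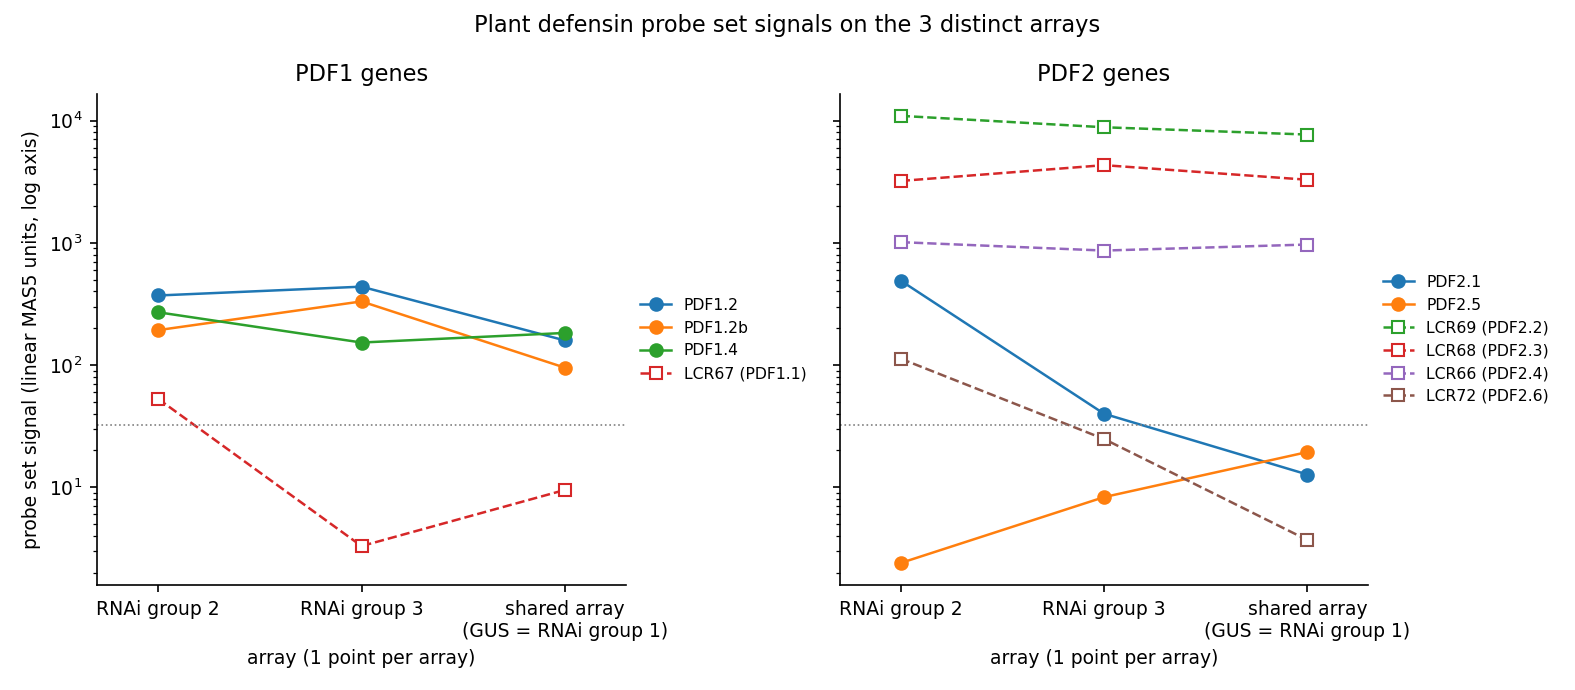
Probe set signal (vertical log axis, linear MAS5 units) on RNAi group 2, RNAi group 3 and the shared array, 1 point per array, for PDF1 genes on the left and PDF2 genes on the right. Filled circles are members, open squares are LCR genes with a PDF synonym, and the dotted line marks a signal of 32. PDF1.2 and PDF1.2b lie higher on both RNAi arrays than on the shared array, PDF2.1 stands at 489.8 on RNAi group 2, and LCR66, LCR68 and LCR69 run nearly flat.

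PDF1.2 had a signal of 370.4 in RNAi group 2 and 437.4 in RNAi group 3, against 158.8 on the shared array. Both RNAi arrays lay above the shared array, at 2.33-fold and 2.75-fold of its signal, and they differed from each other by only -0.24 on the log2 scale (RNAi group 2 minus RNAi group 3). Its log2 signal averaged 8.65 ± 0.17 in the RNAi groups (SD, n = 2), against 7.31 on the shared array (n = 1). The log2 difference was 1.34 (SE 0.51, 95% interval 0.19 to 2.5) and did not pass in limma (adjusted p = 0.9999, unadjusted p = 0.0277). Of all kept probe sets, 228 had a larger difference.

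PDF1.2b is a near-identical copy of PDF1.2, and its probe set carries the suffix that the array maker gives to sets with probes shared with other transcripts. It had 192.9 in RNAi group 2 and 331.3 in RNAi group 3, against 95.1 on the shared array. It was again lowest on the shared array, with RNAi group 2 at 2.03-fold and RNAi group 3 at 3.48-fold of it. The log2 signal averaged 7.98 ± 0.55 in the RNAi groups (SD, n = 2), against 6.57 on the shared array, and the log2 difference was 1.41 (SE 0.57, 95% interval 0.11 to 2.71; limma adjusted p = 0.9999, unadjusted p = 0.0366). In the reference table PDF1.2 stands next to PDF1.2c and PDF1.2b next to PDF1.3, with 0 genes between them in either pair. The signals of PDF1.2 and PDF1.2b may include RNA of these unmeasured copies and of each other, so the 2 genes cannot be read as separate measurements.

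The PDF1.2 pair was more than 2-fold higher in both RNAi groups, as were 202 of the kept probe sets (1.27%), while 0.364% were at least 2-fold lower in both. For PDF1.2b in RNAi group 2 this does not hold under other settings: it was 1.86-fold with median centring, 1.85-fold with quantile normalisation and 1.88-fold with an offset of 16, whereas PDF1.2 stayed above 2-fold in both groups under each of these. Among the 3416 kept probe sets within 0.5 of the mean log2 signal of PDF1.2, the same held for 0.79%, and among the 3023 near PDF1.2b for 1.12%. For scale, RNAi groups 2 and 3 were 2-fold or more apart for 14% of the probe sets as bright as PDF1.2 and for 16.9% of those as bright as PDF1.2b. The 2-fold differences of RNAi group 2 and of RNAi group 3 from the shared array both rest on that lone array. The order RNAi group 3, RNAi group 2, shared array, from bright to dim, was that of 13.9% of the kept probe sets. Between RNAi groups 2 and 3, which do not involve the shared array, PDF1.2 and PDF1.2b differed by less than 2-fold, with RNAi group 3 the higher for both.

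PDF1.4, a PDF1 gene that stands apart from the PDF1.2 copies in the genome, had 270.0 in RNAi group 2 and 152.7 in RNAi group 3, against 182.9 on the shared array. The shared array lay between the RNAi groups. The log2 difference was 0.15 (SE 0.57, 95% interval -1.15 to 1.45; limma adjusted p = 0.9999), and the interval covers changes of more than 2-fold in either direction. Relative to PDF1.4, PDF1.2 was 0.66 higher in RNAi group 2 and 1.72 higher in RNAi group 3, as differences of log2 differences from the shared array. The gap between PDF1.2b and PDF1.4 was 0.46 in RNAi group 2 and 2.06 in RNAi group 3. With 1 array per plant group this gap has no test of its own.

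LCR67, whose synonym is PDF1.1 and whose peptide is known from seeds, was under the filter. It had 52.8 in RNAi group 2 and 3.3 in RNAi group 3, against 9.5 on the shared array. RNAi group 2 alone was above 32, and with signals under 32 set to 32 it was 1.65-fold of the shared array. PDF1.4 and LCR67 were thus brightest in RNAi group 2, and the PDF1.2 pair in RNAi group 3.

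PDF2.1 had 489.8 in RNAi group 2 and 39.9 in RNAi group 3, against 12.7 on the shared array. RNAi group 2 stood 12.3-fold above RNAi group 3, and the shared array was dim. With signals under 32 set to 32, RNAi group 2 was 15.3-fold and RNAi group 3 was 1.25-fold of the shared array. The log2 difference of both RNAi groups together was 3.46 (SE 1.27, 95% interval 0.57 to 6.35; limma adjusted p = 0.9999, unadjusted p = 0.0244), or 2.13 with that floor. The log2 signals of the RNAi groups had an SD of 2.56 (n = 2), the widest among the members past the filter, and the difference rests mainly on RNAi group 2: it was 1.65 on the log2 scale without that group. PDF2.1 passed the filter through its signal in RNAi group 2. Among the 2033 kept probe sets within 0.5 of its mean log2 signal, RNAi groups 2 and 3 were at least 2-fold apart for 25.7%.

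PDF2.5 had 2.4 in RNAi group 2 and 8.3 in RNAi group 3, against 19.4 on the shared array. All 3 signals were dim, the gene was under the filter, and no fold is given. Its log2 difference of -2.12 (SE 1.31) was 0.00 with signals under 32 set to 32.

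The PDF2 relatives under LCR symbols divided into genes with clear signals on every array and LCR72, which was dim on 2 arrays. LCR69 (PDF2.2) had 10923.9 in RNAi group 2 and 8811.7 in RNAi group 3, against 7680.1 on the shared array, a log2 difference of 0.35 (SE 0.50, 95% interval -0.78 to 1.49). LCR68 (PDF2.3) had 3206.3 and 4315.4 in RNAi groups 2 and 3, against 3278.4, a log2 difference of 0.18 (SE 0.51). LCR66 (PDF2.4) had 1011.6 and 863.4, against 967.4, a log2 difference of -0.05 (SE 0.51). No RNAi signal of these 3 genes was more than 1.42-fold from the shared array, and none of the 3 genes passed (limma adjusted p = 0.9999 each). LCR72 (PDF2.6) had 112.6 in RNAi group 2 and 24.8 in RNAi group 3, against 3.7 on the shared array. Like PDF2.1 it was brightest in RNAi group 2, but it was under the filter and exceeded 32 in RNAi group 2 alone, where it was 3.52-fold of the shared array with the floor of 32.

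In the reference table PDF2.1 and LCR68 are adjacent, with 0 genes between them, and LCR69 and LCR72 each lie 2 genes away from the pair. These neighbours differed in pattern: PDF2.1 and LCR72 were brightest in RNAi group 2 by 12.3-fold and 4.54-fold over RNAi group 3, whereas LCR68 was at 0.743-fold and LCR69 at 1.24-fold. Both ratios leave out the shared array. The signal of LCR72 in RNAi group 3 was dim, so its ratio depends on a value under 32.

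**Figure D2:**
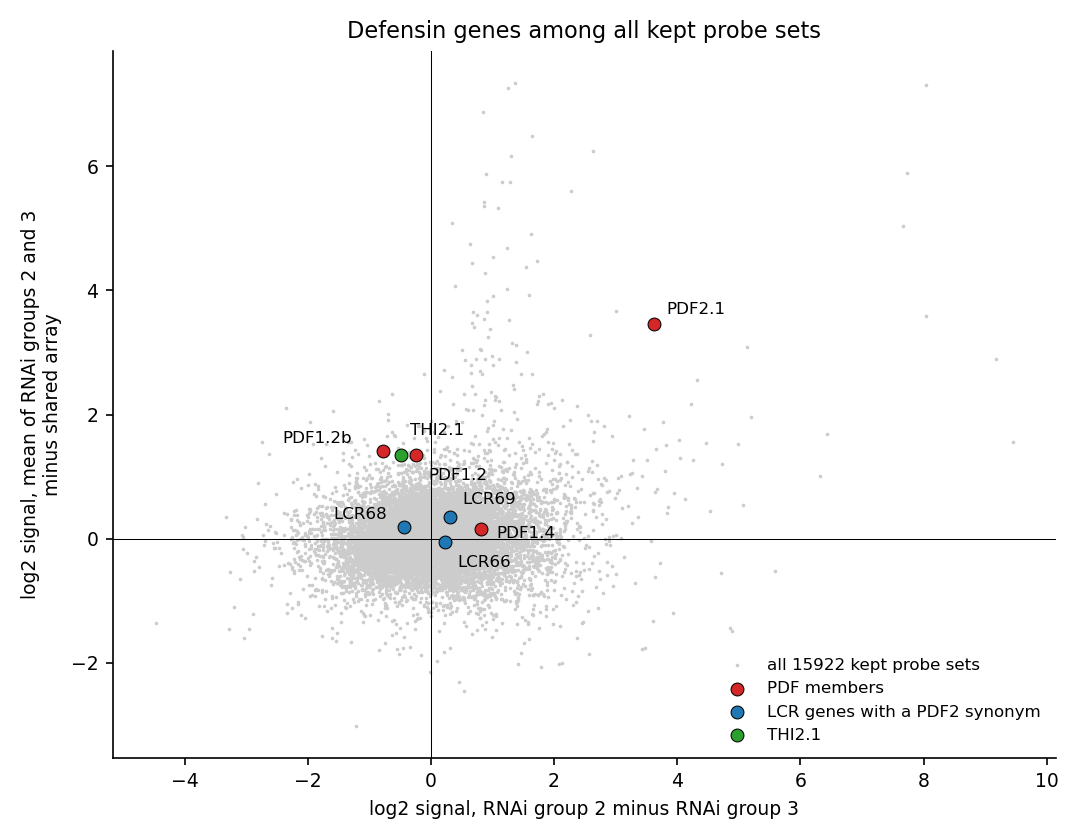
Each point is a kept probe set; the horizontal axis gives the log2 signal of RNAi group 2 minus RNAi group 3 and the vertical axis the mean log2 signal of both RNAi groups minus the shared array. PDF1.2 (-0.24, 1.34), PDF1.2b (-0.78, 1.41) and the thionin gene THI2.1 (-0.48, 1.34) lie close together above the main cloud, PDF2.1 (3.62, 3.46) lies far to the upper right, and PDF1.4, LCR66, LCR68 and LCR69 lie inside the cloud.

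Across the 10 genes of the family with a named probe set, 7 were past the filter, and 0 passed in limma in either direction. Of the 7, an unadjusted p under 0.05 in limma was given for PDF1.2, its copy PDF1.2b, and PDF2.1, which passed the filter through RNAi group 2. At that p 0.923% of all kept probe sets were higher. LCR72, under the filter and dim on 2 arrays, had an unadjusted p of 0.0279 in the limma fit of all probe sets. Past the filter, the family held genes with near-equal signals on all arrays (LCR66, LCR68 and LCR69). Beside them stood genes with more than 2-fold differences (PDF1.2, PDF1.2b and PDF2.1). Of all kept probe sets, 1.27% were at least 2-fold higher in both RNAi groups. Among the genes past the filter, the near-equal ones all have PDF2 names, and of the others only PDF2.1 has one. The genes under the filter are not part of this split. With the floor of 32, LCR72 (PDF2.6) was 3.52-fold of the shared array in RNAi group 2 and LCR67 (PDF1.1) was 1.65-fold. PDF2.5 was dim on all 3 distinct arrays. With the floor of 32, PDF2.1 was 1.25-fold of the shared array in RNAi group 3. PDF1.4 was at 1.48-fold in RNAi group 2 and 0.835-fold in RNAi group 3.

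The genes with the pattern most like a member were found by the distance between log2 differences of RNAi groups 2 and 3 from the shared array, over 3 arrays. With 8561 genes to choose from and so few arrays, near matches are frequent, and the list is a description. For PDF1.2 the nearest were scpl33, a serine carboxypeptidase-like gene, AT5G40490, AT1G37160, AT1G55200 and THI2.1, at distances of 0.079 to 0.170. For PDF1.2b they were AT3G19300, AT1G14200, THI2.1, AT5G14580 and AT1G55200, at 0.079 to 0.260. PDF1.2b itself ranked 34 in likeness to PDF1.2 (distance 0.39). On the shared array scpl33, AT5G40490, AT1G37160, AT1G55200, AT3G19300 and AT5G14580 had signals of 24.6 to 49.2, whereas THI2.1 and AT1G14200 were far above dim on every array; AT1G14200 had 1180.4 in RNAi group 2 and 1712.0 in RNAi group 3, against 517.6 on the shared array.

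For PDF1.4 the nearest genes were AT1G36730, AT3G05400, AT4G16240, AT3G17770 and AT1G67050, all within 0.035. For PDF2.1 no gene came as close. SBT4.13, a subtilase, lay at 0.774, with 383.6 in RNAi group 2 and 64.1 in RNAi group 3, against 16.1 on the shared array. AT1G04560 followed at 1.198, PAP85, a vicilin-like seed storage protein, at 1.379, PLIM2a, an actin-binding LIM protein of pollen, at 1.661 and AT5G38760 at 1.684. PAP85 had 463.9 and 23.2 in RNAi groups 2 and 3, against 17.7, and PLIM2a had 143.5 and 59.4, against 8.0. All of these were brightest in RNAi group 2. AT1G04560 had 993.7 in RNAi group 2 and 28.2 in RNAi group 3, against 19.7. The differences of SBT4.13, AT1G04560, PAP85 and PLIM2a rest, like that of PDF2.1, on dim signals on the shared array. No nearest genes are given for PDF2.5, whose signals were all dim.

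THI2.1, a thionin that is itself a jasmonate-induced antimicrobial peptide, was the only named gene of the jasmonate-induced list, which holds 18 symbols. It had 3051.7 in RNAi group 2 and 4257.1 in RNAi group 3, against 1421.4 on the shared array. As for PDF1.2, RNAi group 3 was the brightest array and the shared array the dimmest. The log2 difference was 1.34 (SE 0.52, 95% interval 0.16 to 2.53; limma adjusted p = 0.9999, unadjusted p = 0.0311). Its relative THI2.2, named here after its values were seen, went another way, with 151.6 in RNAi group 2 and 674.4 in RNAi group 3, against 645.9 on the shared array. The list of defensin-like and other small antimicrobial peptides held 14 named genes, of which 8 were past the filter and 0 passed in limma in either direction. Its members with an unadjusted p under 0.05 in limma were THI2.1, PDF1.2 and PDF2.1, all higher in the RNAi groups. PDF2.1 passed the filter through RNAi group 2. At that p 0.923% of all kept probe sets were higher. The list was chosen with earlier results of these data known. Apart from the thionins THI2.1 and THI2.2 and the defensin genes described above, it held LCR24, LCR59 and LCR80, likewise named after their values were seen, which were dim on all 3 distinct arrays.

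Of 24 symbols in the list of jasmonate synthesis genes, 3 had a named probe set. The 2 past the filter were lower in both RNAi groups, as were 23.3% of all kept probe sets, while 30.2% were higher in both. Their median log2 difference was -1.10, against 0.04 over all kept probe sets, with 0 passing in limma and 1, JMT, at an unadjusted p under 0.05 (0.301% of the kept probe sets were lower at that p). JMT, which converts jasmonic acid to methyl jasmonate, had 678.6 in RNAi group 2 and 1221.3 in RNAi group 3, against 3156.0 on the shared array (log2 difference -1.79, SE 0.56; limma adjusted p = 0.9999). OPCL1, which activates a jasmonate precursor for beta-oxidation, had 4373.9 and 5353.3, against 6431.9 (log2 difference -0.41, SE 0.50). DGL, a lipase gene, was under the filter, with 38.3 and 8.7, against 5.9, and exceeded 32 in RNAi group 2 alone.

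The named regulators of the jasmonate and ethylene signalling lists differed between the RNAi groups in direction. Of 25 jasmonate signalling symbols, the named genes were the transcription factors MYC3 and MYC4, with log2 differences of -0.16 (SE 0.60) and 0.16 (SE 0.53). Of 17 ethylene signalling symbols, they were EIN3, the main transcription factor of the pathway, and RTE1, a regulator of the receptor ETR1, with differences of -0.01 (SE 0.56) and 0.05 (SE 0.54). Each of these 4 genes lay on opposite sides of the shared array in the RNAi groups. Of all kept probe sets, 30.2% were higher in both RNAi groups and 23.3% lower in both, so opposite sides were common. MYC3 had 1040.6 in RNAi group 2 and 474.9 in RNAi group 3, against 784.8 on the shared array. EIN3 had 2390.2 in RNAi group 2 and 1340.5 in RNAi group 3, against 1803.2. Of 39 ERF symbols only ORA47, a regulator of jasmonate synthesis genes, was named, with 1178.4 and 1266.1, against 1581.1 (log2 difference -0.37, SE 0.50). ERF1 and ORA59 were not among the named genes and were not analysed here, nor was any gene of the ethylene synthesis list.

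In the salicylate list the named genes were GRX480, a glutaredoxin that is induced by salicylate and represses PDF1.2 when overproduced, and SAG101, a partner of the immune regulator EDS1. GRX480 had 779.8 in RNAi group 2 and 785.1 in RNAi group 3, against 972.8 on the shared array (log2 difference -0.31, SE 0.50). SAG101 had 93.0 and 60.8, against 124.1 (-0.72, SE 0.63). Both were lower in both RNAi groups, as were 23.3% of all kept probe sets, and neither passed in limma (adjusted p = 0.9999) or had an unadjusted p under 0.05. The list of camalexin and indole glucosinolate genes had no named member.

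**Figure D3:**
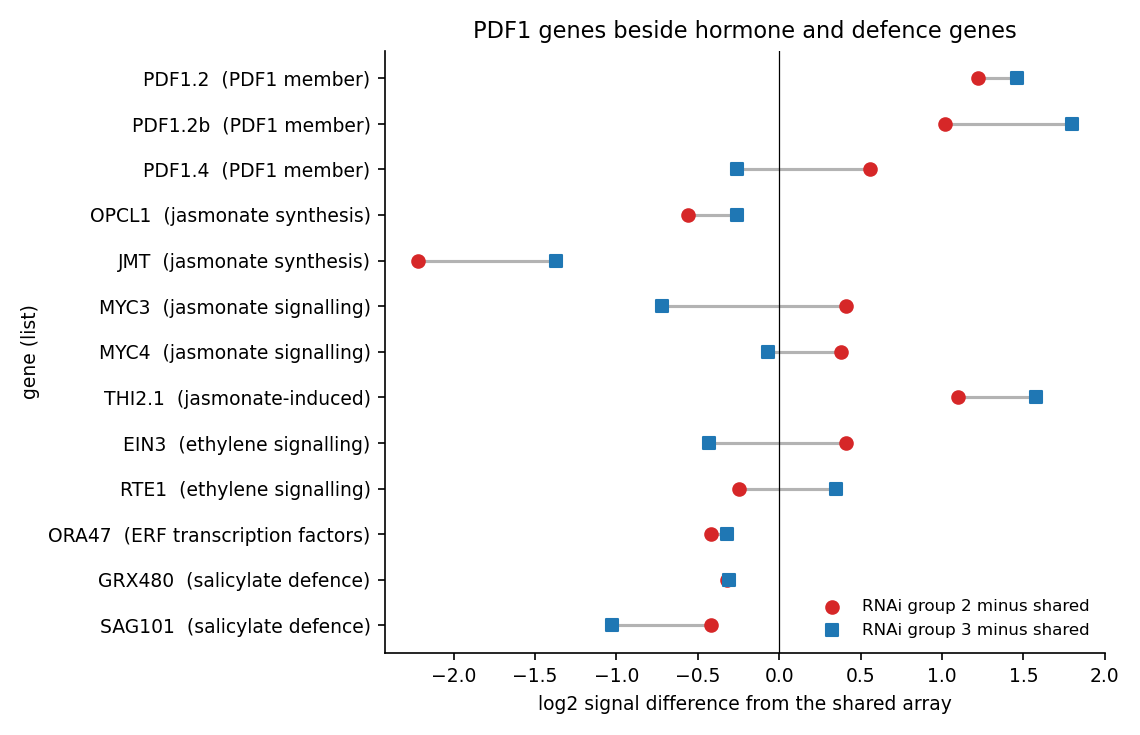
Log2 signal difference from the shared array in RNAi group 2 (circles) and RNAi group 3 (squares) for the PDF1 members and the named genes past the filter of the hormone and salicylate lists, 1 gene per row. Both differences share the lone shared array. PDF1.2, PDF1.2b and THI2.1 lie right of 1 in both groups, JMT lies left of -1, and MYC3, MYC4, EIN3 and RTE1 lie on either side of 0.

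Tissue markers were set beside these patterns. Of the leaf list, RCA (Rubisco activase) and LHCB4.1 (a photosystem II antenna protein) were named. RCA had 20964.3 in RNAi group 2 and 22392.2 in RNAi group 3, against 21684.4 on the shared array, and LHCB4.1 had 14452.3 and 20157.2, against 20086.6. Of the anther tapetum list, AMS had 150.5 and 188.7, against 199.1, and EMS1 had 240.0 and 154.4, against 213.8. Markers of leaf and of anther thus had signals above dim on all 3 distinct arrays, and no member of the floral organ or seed lists was named to set beside them. The root markers were under the filter. PYK10, a beta-glucosidase gene, had 41.9 and 45.7, against 22.1, and EXPA7, an expansin gene, was dim on all 3 distinct arrays.

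Of 8 symbols in the pollen list, 3 were named. Like PDF2.1 and LCR72, each of the 3 was brightest in RNAi group 2, and all were dim on the shared array. PC1, which encodes a calcium-binding protein of pollen, had 209.4 and 63.6, against a dim 5.2, and passed the filter through the RNAi arrays (log2 difference 1.85 with signals under 32 set to 32, or 4.47 without, SE 0.91; limma adjusted p = 0.4294). MGH3, the histone H3 of male gametes, had 53.2 and 13.6, against 5.0, and the pollen actin ACT12 had 46.3 and 11.8, against 31.0; both exceeded 32 in RNAi group 2 alone. In mixed tissue, more cells of a type and more RNA per cell cannot be told apart. The part of flower, pollen or other tissue content in the signals of PDF2.1, LCR72 and the PDF1.2 pair was not tested. The PDF1.2 pair was brighter in RNAi group 3 than in RNAi group 2. Of the tapetum markers, EMS1 was brighter in RNAi group 2 than in RNAi group 3 and AMS the reverse. Both leaf markers were brighter in RNAi group 3 than in RNAi group 2.

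**Figure D4:**
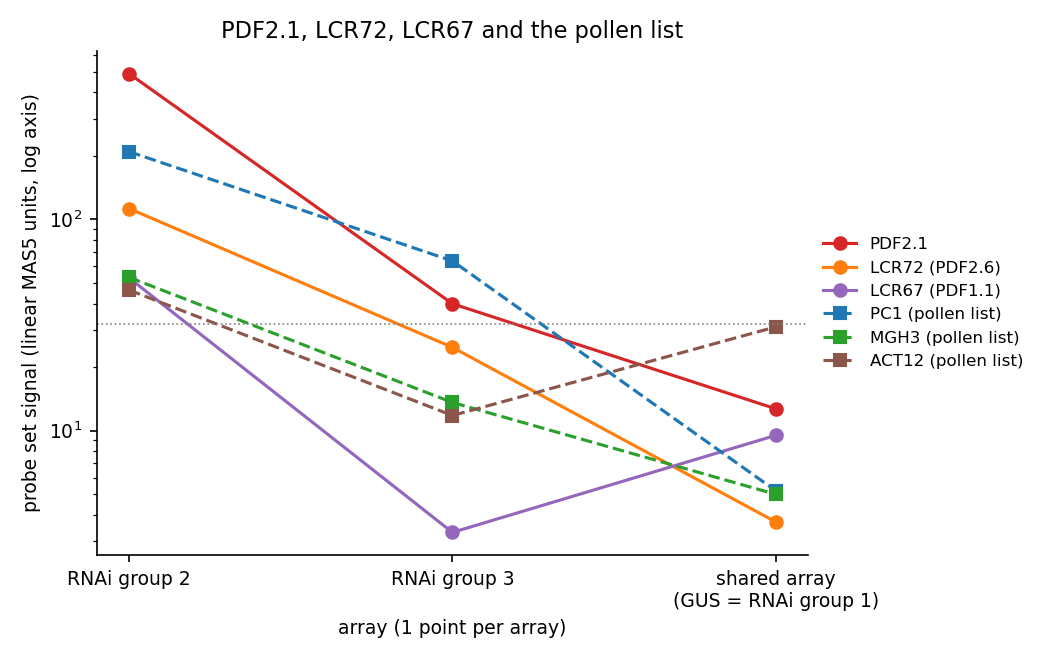
Probe set signal (log axis, linear MAS5 units) on each distinct array for PDF2.1, LCR72 and LCR67 (circles) and the 3 named pollen markers (dashed, squares), 1 point per array, with a dotted line at 32. All 6 are brightest on RNAi group 2, and points under the dotted line have no order among themselves.

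Across the processing settings the PDF1.2 pair kept its sign, which the filters, other spread estimates and the 4 columns as labelled could not change. Apart from leaving out an RNAi group, the log2 difference of PDF1.2 ranged over 0.89 to 1.34 and that of PDF1.2b over 0.94 to 1.41, the lowest values coming from the 4 columns as labelled, where RNAi group 1 repeats the control values. PDF2.1 ranged over 2.13 to 3.46, PDF1.4 over 0.07 to 0.15 and the dim PDF2.5 over -2.26 to 0.00.

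**Figure D5:**
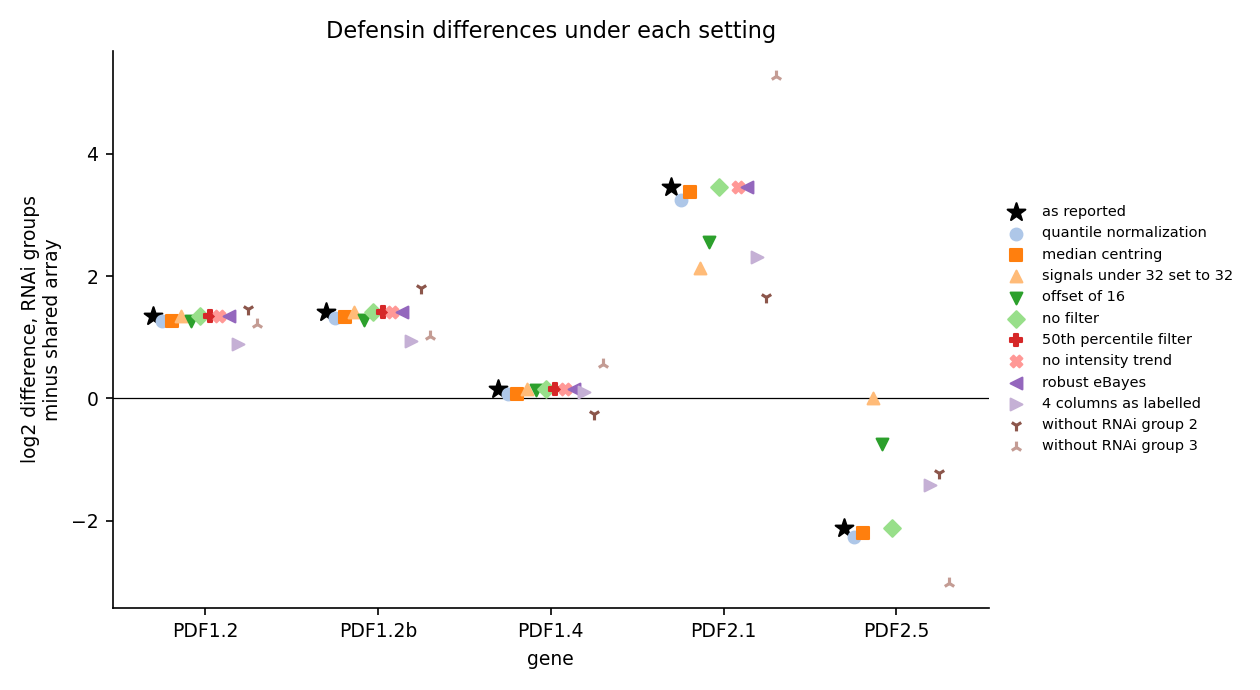
Log2 difference of the RNAi groups from the shared array (vertical axis) for each PDF member under every setting, 1 marker per setting, with the star for the value as reported. The values without an RNAi group are differences between 2 arrays. PDF1.2 and PDF1.2b stay above 0.8, PDF1.4 falls on both sides of 0, PDF2.1 spreads over 1.65 to 5.27, and PDF2.5 reaches 0.00 with the floor of 32.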

How the data were processed

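Biotin-labelled cRNA of 4 samples was hybridised to 1-colour Affymetrix arrays and stained with phycoerythrin, according to the labels. The authors deposited 1 linear intensity per probe set, and the submitters' processing notes name GCOS and MAS5, without versions. Column means after trimming 2% from each end were 500.05 to 500.06, so no further scaling was done. Precision is limited by the number of arrays.

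GUS control and RNAi group 1 columns were identical in all 22810 rows, against 56 to 67 equal rows in any other pair, and were counted as 1 array. After 64 control probe sets were left out, 13513 probe sets were named by 1 gene through the platform annotation, with 13436 matched to the TAIR10.1 table by gene identifier; 503 list several genes and 8730 are unnamed here. A filter at the 30th percentile of the mean log2 signal (5.307) kept 15922 probe sets. RNAi groups 2 and 3 were compared with the shared array by limma 3.58.1 in R 4.3.3 (lmFit, eBayes with an intensity trend, 2-sided, Benjamini-Hochberg over the kept probe sets, threshold 0.05), with 1 residual and 7.45 prior degrees of freedom. The procedure was also run on simulated data in which every array had a spread taken from the RNAi arrays. Such data cannot check whether the shared array varies like them. Values for genes under the filter come from a fit of all probe sets.

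The members and gene lists were chosen with earlier results of these data known. From each list the text names the members past the filter with the 2 largest differences and the 2 highest mean signals, and for each member the 5 genes nearest to it; the brightest probe set stands for a gene that has several. Exceptions are stated. Alternatives were another normalisation, centring, a floor, an offset, other filters, other spread estimates, the 4 columns as labelled, and leaving out either RNAi group.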

Additional observations from a re-analysis of the deposited data

How the results depend on the processing

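None of the PDF members past the filter reached the limma threshold under any setting that gives a test. PDF1.2, PDF1.2b and PDF2.1 were higher than on the shared array under every setting run for them. The filters, the other spread estimates and the 4 columns as labelled could not change these signs. The floor leaves the values of the PDF1.2 pair untouched. The 50th percentile filter removed PDF2.1. Leaving out one RNAi group leaves 1 array against 1, a value with no test: the log2 differences were 1.22 to 1.46 for PDF1.2, 1.02 to 1.80 for PDF1.2b, -0.26 to 0.56 for PDF1.4, whose sign turned without RNAi group 2, 1.65 to 5.27 for PDF2.1 and -3.01 to -1.22 for PDF2.5. The difference of PDF2.5 was 0.00 with the floor of 32 and -0.74 with an offset of 16, since its signals are all dim. PDF1.2b in RNAi group 2 fell under 2-fold of the shared array with median centring (1.86-fold), quantile normalisation (1.85-fold) and the offset (1.88-fold). The count of 5 higher probe sets was 13 without the intensity trend and 0 with quantile normalisation, the floor, the offset, no filter, robust eBayes or the 4 columns as labelled; the cause was not tested. The counts at least 2-fold apart in both RNAi groups, 202 higher and 58 lower, were 1261 and 651 with no filter and 57 and 35 with the 50th percentile filter, which test more and fewer probe sets. With a single RNAi group they were 607 to 1002 higher and 598 to 629 lower. In the 4 columns as labelled RNAi group 1 equals the control, so that count has no value there. No paired analysis was possible, because there is 1 GUS array and its values equal those of RNAi group 1. Signals under 32 limit the folds of PDF2.1 and LCR72 and leave none for PDF2.5. The residual spread comes from 2 arrays, and the shared array is assumed to vary like them.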
